A study of Sus scrofa with 22 samples.

Results

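The sequences described here are miRNA reads from pig subcutaneous fat in which 1 adenosine of the usual mature sequence was read as guanosine, the form in which an edited miRNA would appear. For each miRNA name the sequence with most reads over all 22 libraries was taken as the leading sequence. A member is a deposited sequence of the same name and length that differs from it by exactly 1 base, an A read as G, at a position from 2 to the length minus 3. Positions are counted from 1 at the 5′ end, and A16G means that the leading sequence has A and the member G at position 16. This rule found 158 members among 8409 named sequences, in 62 of 250 miRNA names, and among 907 single-base changes of any kind at the same positions. The members were chosen on their read counts, so their shares of reads are given as a description. The share of a member is its G reads divided by G plus A reads, where A reads are those of the leading sequence.

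The libraries come from female pigs of 6 months, slaughtered and classed by the submitters as having thick or thin subcutaneous fat, 1 library per animal. Thick fat was sampled in 4 Pietrain, 4 Large White and 5 Hampshire pigs, and thin fat in 3, 4 and 2 pigs of these breeds. No treatment was applied, and whole fat tissue was used, so cells other than adipocytes contribute. In such tissue fewer cells of a type and less RNA per cell cannot be told apart.

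A-to-I editing is the deamination of adenosine to inosine in double-stranded RNA by ADAR enzymes. Inosine pairs with cytidine, so reverse transcription and sequencing report it as guanosine. The miRNA hairpins are double-stranded and some are substrates, best known in brain, where edited members of the miR-376 family choose other targets because the change lies in the seed. The seed, positions 2 to 8, is the part of a miRNA that pairs with its target messages. ADAR enzymes prefer an adenosine with a U before it and a G after it. A G read can also come from an error in copying or sequencing, from an allele of the animal, or from a related miRNA, and read counts alone do not separate these.

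The 4 changes below are shown because they had the highest shares of reads or passed a test between groups. Each is given as the leading sequence, with the adenosine concerned in capitals, and as the member, with the G in capitals.
miR-365-3p: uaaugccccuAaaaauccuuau
miR-365-3p A11G: uaaugccccuGaaaauccuuau
miR-378: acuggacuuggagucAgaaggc
miR-378 A16G: acuggacuuggagucGgaaggc
miR-143-3p: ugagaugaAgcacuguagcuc
miR-143-3p A9G: ugagaugaGgcacuguagcuc
miR-26a: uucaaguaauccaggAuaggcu
miR-26a A16G: uucaaguaauccaggGuaggcu

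The next set holds the leading sequences of the miRNAs with most G reads or with relatives to compare, with the seed in capitals. miR-148a-3p and miR-152 share a seed, as do miR-99a and miR-100.
miR-148a-3p: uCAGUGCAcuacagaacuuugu
miR-152: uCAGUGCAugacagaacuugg
miR-99a: aACCCGUAgauccgaucuugu
miR-100: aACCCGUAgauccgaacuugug
let-7a: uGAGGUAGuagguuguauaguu

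Total deposited counts ran from 431542 to 3137757 per library. No library held a count between 0 and 6, so a member listed at 0 can have had up to 5 reads where its leading sequence was read. Some leading sequences were themselves listed at 0. That of miR-21 had 0 in Large White thick fat replicate 3 and at least 3825 reads in every other library. Those of miR-10a-5p, miR-145-5p, miR-199ab-3p and miR-320 also had 0 in some libraries. Members of these miRNAs could not be tested in fits that included such a library. The miRNAs listed for adipocytes (3 of 3 found, miR-148a-3p, miR-143-3p and miR-26a) summed to between 290111 and 482309 CPM (counts scaled to a library total of 1000000). Their sum is not taken as a measure of adipocyte content. Nerve markers were represented by miR-9 alone, 1 of 2, at 21.5 to 222 CPM, and the liver miRNA miR-122 ranged from 0 to 16832 CPM. For Large White, fold changes refitted with the labels correlated at r = 0.652 across 6796 sequences with those in the authors' deposited table, and at r = 1.0 after thick fat replicate 1 and thin fat replicate 1 were exchanged. The labels of these 2 libraries are thus in doubt, and results on fat class that include them are given both ways.

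The 158 members held 206686 reads, 0.559% of all named reads. Their shares, pooled over libraries, had a median of 0.229%, quartiles of 0.166% and 0.326%, and a range from 0.0281% to 2.76%. Only 3 lay above 0.5% and only 1 above 1%. Of all members, 40 had reads in each of the 22 libraries, 139 had reads in 2 or more and 19 had reads in 1 library only. The 10 members with the fewest reads, 6 each, had a median share of 0.0546%. A filter of at least 12 expected reads in every library, used for the tests below, kept 32 members of 11 miRNAs.

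Members were found where a miRNA was deeply read. Of 23 names whose leading sequence reached 10000 reads in a library, 19 had members, 60 in all. Of 41 names that reached 1000 but not 10000, 37 had 92 members, and of the 186 names below that only 6 had 1 each. The 62 names with members held 91.4% of named reads. miR-148a-3p, a miRNA that promotes adipocyte differentiation and the most abundant one here, gave 43.8% of all G reads from its 5 members. It has 5 adenosines from position 8 to the length minus 3, and all 5 were read as G.

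No member lay at positions 2 to 7. This gap was not special to A-to-G changes. Of 1633 single-base changes of any kind only 4, with 113 reads in all, lay at positions 2 to 7, against 72 at position 8 alone. Among leading sequences that reached 10000 reads in a library, 0 of 40 adenosines at positions 2 to 7 had a G counterpart, and from position 8 on all but 12 of 72 had one. The tables therefore hold almost no changed reads for most of the seed, and editing there could not be measured. The step that left them out is not given in the sources used here. All 15 members in the seed were at position 8, and 0 of the changed seeds was the seed of another miRNA's leading sequence. The largest seed change by reads was miR-148a-3p A8G, with 21959 G reads at 0.376%.

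Some adenosines from position 8 on lacked a member because the changed sequence bears another miRNA's name. let-7a A19G is listed under let-7c with 282268 reads, and let-7f-5p A12G is the leading sequence of let-7a. miR-10b A12G is listed under miR-10a-5p, miR-100 A16G under miR-99a and let-7f-5p A19G under let-7c, with 3649, 739 and 2392 reads. The other 7 such adenosines lie in the leading sequences listed as let-7c, miR-30a-5p and miR-381-3p. That of let-7c had 352916 reads, beside the 282268 above, so this name holds more than 1 abundant sequence. Names are as deposited, and no reference of mature miRNA sequences was at hand to check them. miR-381-3p, a miRNA in which editing is known in brain, was listed as 1 sequence only, with 143149 reads and no variant of any kind. One member, miR-378 A19G (0.292%, 443 reads), contains the shorter leading sequence listed as miR-378/378b-3p and was set apart. It was not tested, because it did not pass the filter of expected reads.

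A-to-G changes had a median share of 0.229% over all 158 members, and other changes were seen at the same positions. The 184 U-to-C changes had a median pooled share of 0.178%, the 93 C-to-U changes 0.0817% and the 86 G-to-A changes 0.0406%. The 73 A-to-U and 55 A-to-C changes had medians of 0.0279% and 0.0129%. Over the sites that passed the filter in every library, the library median of the 32 A-to-G shares was 0.287% ± 0.00948 (SD, n = 22), with a range of 0.274% to 0.318%. For 29 U-to-C sites it was 0.217% ± 0.00984 (SD, n = 22), with a range of 0.194% to 0.236%. A-to-G was the higher in 22 of 22 libraries and the ranges did not overlap. The same sites were used in every library, so these are not 22 independent comparisons. Expected reads rise with the share of a site, so the filter kept sites partly because their share was high. It kept 32 of 158 A-to-G and 29 of 184 U-to-C changes, and the medians describe these sites only. The separation of the ranges ended with a filter of 30 expected reads. That filter left 20 A-to-G sites at 0.291% ± 0.00980 (SD, n = 22) and 12 U-to-C sites at 0.284% ± 0.0178 (SD, n = 22). The ranges were then 0.275% to 0.312% and 0.258% to 0.332%, and A-to-G was the higher in 14 of 22 libraries. The sites of both kinds lie in partly the same miRNAs, and no test is given for a median over members chosen in this way.

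The bases around the adenosine were compared at 59 members of deeply read miRNAs. Where the base before was C the median share was 0.376% (11 sites), and where it was G 0.322% (17 sites). It was 0.227% where U came before (21 sites) and 0.226% where A did (10 sites). Over all 59 the median was 0.280%. Of the adenosines from position 8 on, 9 of 12 in the context UAG had a member, and the changed sequence of 2 more is listed under another name. In CAG 7 of 7 had one. The median share was 0.251% at the 9 UAG sites, with a highest of 0.299%, and 0.391% at the 7 CAG sites. These contexts differ in miRNA and position, and no test of context is given. By position the medians of A-to-G shares ran between 0.183% at position 14 (14 members) and 0.292% at position 12 (11 members), leaving out positions 19 and 20 with 4 and 1 members.

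miR-365-3p A11G had the highest share of any member. miR-365 is transcribed together with miR-193b and is linked to brown adipocyte differentiation. Its 257 G reads made up 2.76% of 9323 (95% exact binomial interval 2.43% to 3.11%, which covers counting error only), in 15 of 22 libraries. The lowest, median and highest Pietrain libraries had 0%, 2.86% and 3.57%, and those of Large White 0%, 2.86% and 4.18%. In Hampshire they had 0%, 0% and 2.92%. The 7 libraries listed at 0 had 269 or fewer A reads, at which the share seen elsewhere gives only a few reads, so they do not show an absence. In miR-365-3p reads of other lengths the share was 0.645%, and over all lengths 1.75%, below that of the leading length. This adenosine is the first of a run of 5, and A11G was the only member of miR-365-3p.

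miR-378 A16G came next, at 0.939% (95% exact binomial interval 0.892% to 0.989%, 1436 G reads), with reads in all 22 libraries. miR-378 is encoded within the PPARGC1B gene, a regulator of energy metabolism, and editing of this miRNA is known in human cells. In Pietrain thick fat the libraries had 0.886%, 1.36%, 1.18% and 0.872%, and in thin fat 0.730%, 0.980% and 1.10%. In Large White thick fat they had 1.62%, 0.818%, 0.837% and 0.781%, and in thin fat 0.883%, 0.647%, 0.651% and 0.856%. In Hampshire thick fat they had 0.731%, 0.365%, 0.763%, 0.957% and 0.821%, and in thin fat 3.23% and 1.29%. Hampshire thin fat replicate 1 stood far above the other 21 libraries, whose highest value, 1.62%, was that of Large White thick fat replicate 1. The same library was also highest in miR-378 reads of other lengths, at 2.60% against 0% to 0.995% in the others. It had the lowest level of miR-378, 5597 CPM, and the highest of the liver miRNA miR-122, 16832 CPM. Hampshire thick fat replicate 3, with 14296 CPM of miR-122, had a share of 0.763%. The part of either level in the share was not tested.

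The other miR-378 members were lower and more even. miR-378 A12G had 0.441% and A18G 0.368%, both with reads in nearly all libraries. Across libraries A12G ranged from 0.299% to 0.610% and A18G from 0% to 0.606%. Neither reached in any library the median that A16G had over all of them, 0.864%.

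miR-143-3p, an abundant miRNA that promotes adipocyte differentiation, held the third highest share. A9G had 0.528% (6181 G reads) and ranged from 0.464% to 0.603% over libraries, with 0.515% in other lengths. The adjacent A8G had 0.435% and ranged from 0.303% to 0.502%. The libraries differed little at both sites, and no library lacked them.

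The remaining members among the 12 highest lay close together, between 0.416% and 0.463%. miR-320 A14G had 0.463% from 83 reads in the leading length, but 0.0789% in other lengths and 0.183% over all lengths. let-7e A10G had 0.441% from 259 reads, and 0.142% in other lengths. let-7 miRNAs restrain proliferation. miR-199ab-3p A13G, in a miRNA of stromal cells, had 0.429%, and miR-151-3p A9G 0.427%. miR-152 A13G and A11G had 0.424% and 0.418%, and miR-125a A9G 0.416%. The 95% exact binomial intervals of these members overlapped, from 0.369% to 0.574% for miR-320 A14G and from 0.384% to 0.450% for miR-125a A9G, so their order is not resolved at this depth.

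The members with most G reads were the 5 of miR-148a-3p, with shares set precisely by depth. A13G had 24291 G reads at 0.415% and a range over libraries of 0.362% to 0.463%, and A8G ranged from 0.324% to 0.397%. A15G had 0.293%, with 0.273% in the lowest and 0.315% in the highest library. A11G had 0.241% and A16G 0.225%. Within this miRNA A13G exceeded A16G in every library, since the lowest A13G share lay above the highest A16G share, 0.248%.

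A list of 18 miRNAs known for editing in mammals was examined as a group. 11 were found among the names, and 5 of these had 13 members. Over all names 62 of 250 had members, and 19 of the 23 most deeply read. Besides the 4 of miR-378, miR-99a had A10G at 0.322%, A8G at 0.241% and A15G at 0.216%, and miR-151-3p had A10G at 0.356% beside A9G. miR-27a had A14G at 0.188% and A13G at 0.140%. miR-455-5p, a miRNA of thermogenic adipocytes, had A14G and A17G at 0.0474%, each with 6 reads in 1 library. miR-376c, miR-381-3p, miR-497, miR-421, miR-200b and miR-142 had no member, and of these miR-381-3p alone had more than 10000 reads. Changes at positions 2 to 7 could not be measured in any of the listed miRNAs. The lack of a member therefore does not show a lack of editing. Whether the members found lie at the adenosines known for editing was not examined.

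Related miRNAs allowed the same base context to be compared in different molecules, a comparison chosen after the values were seen. In 14 sets, members of different miRNAs had the same seed, position and 2 bases on each side, and at least 100 G reads each. The highest share of a set exceeded the lowest by a factor of 1.00 to 1.39, with a median of 1.14. In miR-148a-3p and miR-152, A13G had 0.415% and 0.424%, and A16G 0.225% and 0.226%, while A15G had 0.293% and 0.355%. In miR-23a and miR-23b A12G had 0.331% and 0.338%, and in miR-125a and miR-125b A9G had 0.416% and 0.378%. In miR-99a and miR-100 A10G had 0.322% and 0.298%, and A8G 0.241% and 0.216%. The widest set was A14G of miR-27a and miR-27b-3p, at 0.188% and 0.262%. The 97 members with at least 100 G reads that were not set apart had a median of 0.288% and ranged from 0.0845% to 2.76%. The highest after miR-365-3p A11G was 0.939%. A range over 97 members is wider by their number alone than a range within a set. How far members of unlike context differ in pairs was not examined.

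Reads of the same miRNA with the same 5′ start but another length gave a second measure that the rule did not use. All 32 members that passed the filter had G reads there, with a median share of 0.208% against 0.286% in the leading length. The ratio of the other to the leading length had a median of 0.793 and ranged from 0.0707 for miR-26a A8G to 1.42 for miR-26a A16G. Each sequence of another length needed 6 reads of its own to be listed, which lowers this share for thinly read lengths. In other lengths miR-148a-3p A16G had 0.0189% and A11G 0.0349%.

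Shares varied little between animals at most sites. Over the 32 members that passed the filter, the coefficient of variation across the 22 libraries had a median of 10.8%. The chi-square of G and A reads divided by its 21 degrees of freedom, about 1 where libraries differ by counting error alone, had a median of 1.30. It exceeded 2 at 3 sites, miR-378 A16G (12.2), miR-26a A16G (3.46) and miR-10b A11G (2.33). At miR-378 A16G the highest library exceeded the lowest by a factor of 8.86, and at miR-26a A16G by 1.62.

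Whether thick and thin fat differ in these shares was first asked in the 3 breeds together, in a fit with a breed term. The ratio of G to A reads was tested with edgeR's quasi-likelihood test, and p-values were adjusted over all single-base changes that passed the filter. edgeR called 0 of 32 members, against 3.32% of all 241 changes tested, whose 8 calls were all at position 1. Unadjusted p was under 0.05 in 2 members and in 14.5% of all changes. The log2 fold changes of the ratio, thick minus thin, had a median of -0.01 and ranged from -0.23 to 0.11, and over all changes the median was -0.04. miR-126-3p A15G, in an endothelial miRNA, had the smallest p, at -0.20 ± 0.08 (SE, 95% interval -0.36 to -0.05, edgeR adjusted p = 0.144) on that scale. Its shares had a lowest, median and highest library of 0.258%, 0.310% and 0.422%, and thick and thin libraries overlapped. miR-99a A8G followed at 0.11 ± 0.05 and let-7a A17G at -0.11 ± 0.06, with edgeR adjusted p-values of 0.327 and 0.421. Once the doubtful Large White pair was swapped, edgeR again called 0, and miR-126-3p A15G was at -0.15.

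Within Pietrain edgeR called 0 of 44 members, against 15.4% of 382 changes, most of whose calls were at position 1 (38 of 59). Of 118 changes of other kinds at the members' positions 12 were called. At an unadjusted p under 0.05 were 3 members, against 25.1% of all changes. miR-126-3p A18G had 0.235%, 0.212%, 0.189% and 0.209% in the thick and 0.142%, 0.210% and 0.123% in the thin libraries, so the groups overlapped. Its log2 fold change was 0.44 ± 0.18 (SE, edgeR adjusted p = 0.0938), and without thin fat replicate 2, the high one of its group, it was 0.68 and passed (edgeR adjusted p = 0.0120). miR-126-3p A15G went the other way, at -0.30 ± 0.14, with 0.299%, 0.336%, 0.267% and 0.314% in thick and 0.343%, 0.403% and 0.422% in thin fat, without overlap (edgeR adjusted p = 0.157). miR-100 A10G was at -0.34 ± 0.16, also without overlap, with 0.205% to 0.286% in thick and 0.293% to 0.369% in thin fat (edgeR adjusted p = 0.195).

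In Large White edgeR called 0 of 39 members, against 0% of 311 changes. At an unadjusted p under 0.05 was 1 member, against 2.89% of all changes. miR-148a-3p A15G had 0.293%, 0.275%, 0.281% and 0.283% in the thick and 0.315%, 0.301%, 0.305% and 0.308% in the thin libraries, which did not overlap. The difference was -0.12 ± 0.05 (SE, edgeR adjusted p = 0.966) on the log2 scale, and -0.07 once those 2 libraries were swapped. miR-143-3p A12G at 0.16 ± 0.09 and let-7g A19G at -0.16 ± 0.09 followed, and after the exchange they were at 0.14 and -0.0044. edgeR called 0 after the exchange as well.

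In Hampshire edgeR called 0 of 35 members, against 0% of 262 changes, with 5 thick and 2 thin libraries. At an unadjusted p under 0.05 was 1 member, against 3.44% of all changes. miR-378 A16G averaged 0.727% ± 0.220 (SD, n = 5) in thick fat and 1.29% and 3.23% in thin fat, without overlap. On the log2 scale the ratio differed by -1.49 ± 0.38 (SE, 95% interval -2.39 to -0.59, edgeR adjusted p = 0.505). DESeq2 called it, with an adjusted p of 0.0149. Without thin fat replicate 1 it was -0.76 (edgeR adjusted p = 0.593) and without thin fat replicate 2 it was -2.11 and passed (edgeR adjusted p = 2.8e-04), the lone thin library being assumed to vary like the thick ones. let-7g A17G at -0.34 ± 0.18 and let-7a A10G at -0.28 ± 0.15 had the next smallest p-values, both with an edgeR adjusted p of 0.973.

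Variation of the fat difference between breeds was tested with an interaction term, which called 1 of 32 members, miR-378 A16G (edgeR adjusted p = 0.0169), against 7.47% of all 241 changes. Of these 18 calls 16 were at position 1, and 1 of 55 changes of other kinds at the members' positions was called. For miR-378 A16G the difference within Pietrain and Large White was 0.26 ± 0.19 and 0.24 ± 0.21 on the log2 scale (SE), opposite in sign to the -1.49 of Hampshire. The call rested on Hampshire thin fat replicate 1, without which the edgeR adjusted p was 0.272. After the exchange of Large White libraries it was 0.0411, and the difference within that breed was -0.0014. One other member, miR-148a-3p A15G, was at an unadjusted p under 0.05 (edgeR adjusted p = 0.209). With it 2 of 32 members were, against 14.5% of all changes.

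For breeds, both fat classes carried equal weight. The deposited tables are separate by breed, and breed and library batch cannot be told apart. Between Pietrain and Large White edgeR called 0 of 32 members, against 22% of 241 changes. Most of these calls lay at the ends of the miRNA, and 4 of 55 changes of other kinds at the members' positions were called. At an unadjusted p under 0.05 were 2 members, against 31.1% of all changes. On the log2 scale, and as Pietrain minus Large White, let-7a A10G was at 0.15 ± 0.06, let-7f-5p A10G at 0.12 ± 0.05 and miR-26a A8G at -0.18 ± 0.09 (SE), with edgeR adjusted p-values of 0.101, 0.107 and 0.184. Without Large White thin fat replicate 3 let-7a A10G passed (edgeR adjusted p = 0.0448), and without Pietrain thin fat replicate 3 let-7f-5p A10G did (0.0488).

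Hampshire fat had a lower share of miR-26a A16G than both other breeds. miR-26a is an abundant miRNA linked to adipocyte differentiation. The lowest, median and highest libraries had 0.294%, 0.313% and 0.358% in Hampshire. They had 0.313%, 0.417% and 0.478% in Large White, against 0.331%, 0.378% and 0.401% in Pietrain. Hampshire thus lay at the low end, with some overlap with each of the other breeds. The means were 0.321% ± 0.0218 (SD, n = 7), 0.402% ± 0.0514 (SD, n = 8) and 0.366% ± 0.0265 (SD, n = 7). Against Large White the log2 fold change of the ratio was -0.34 ± 0.07 (SE, 95% interval -0.50 to -0.19, edgeR adjusted p = 0.00305). Against Pietrain it was -0.23 ± 0.08 (SE, 95% interval -0.39 to -0.07, edgeR adjusted p = 0.0207). The 2 comparisons share the Hampshire libraries. miR-26a A16G was the only one of 32 members called in each, against 11.6% of 241 changes in the first and 39% in the second. Of 55 changes of other kinds at the members' positions 3 and 6 were called.

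Levels of markers of other cell types and of the miRNAs listed for adipocytes are given here by breed, with no test. Those listed for adipocytes, of which miR-26a is itself 1, summed to 360234 to 482309 CPM in Hampshire, 290111 to 387483 in Large White and 299051 to 368380 in Pietrain. Skeletal muscle markers (2 of 3 found, miR-206 and miR-133a-3p) had 227 to 1819 CPM in Hampshire, 111 to 986 in Large White and 147 to 1730 in Pietrain. The liver miRNA miR-122 had a median of 2682 CPM in Hampshire, 389 in Large White and 432 in Pietrain. Endothelial markers (2 of 2) had medians of 39193, 45810 and 43820 CPM, red blood cell markers (3 of 3) 697, 506 and 868 CPM, and leukocyte markers (3 of 3) 11.6, 7.24 and 0 CPM in the same order. The nerve marker miR-9 had 70.1 to 222, 21.5 to 104 and 36.7 to 108 CPM. Their part in the share of miR-26a A16G was not tested.

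The same change was read in miR-26a sequences of other lengths, in the same libraries. There the mean share of the 7 Hampshire libraries was 0.303% (SD 0.156). That of the 8 Large White libraries was 0.576% (SD 0.157), and that of the 7 Pietrain libraries 0.474% (SD 0.161). These values are a description with no test, since the site was chosen for its difference between the same animals. Hampshire libraries were shallower, with a median total of 1224636 deposited counts, against 2071425 in Large White and 1611611 in Pietrain. The need for 6 reads per sequence lowers this share more at low depth, and its part in the difference was not tested. Hampshire thick fat replicate 2, the shallowest library, had no such reads and counts as 0, and without it the Hampshire mean was 0.353% (SD 0.0884, n = 6). Against Pietrain the call in the leading length was lost without Pietrain thin fat replicate 1 (log2 fold change -0.21, edgeR adjusted p = 0.0533) and without Hampshire thin fat replicate 2 (-0.21, 0.0916).

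Other members came near the threshold between Hampshire and Large White. miR-99a A15G had -0.23 ± 0.08 (SE, edgeR adjusted p = 0.0522) and miR-378 A16G 0.61 ± 0.21 (edgeR adjusted p = 0.0674), the latter with the high Hampshire thin fat replicate 1. In all, 5 of 32 members were at an unadjusted p under 0.05 in that comparison, against 27.0% of all changes. Between Hampshire and Pietrain 2 of 32 were, against 44.4% of all changes. The share was thus lower in members (15.6% and 6.25%) than over all changes. The largest log2 fold changes between breeds in either direction were 0.61 and -0.34, both against Large White. The calls among all changes lay mostly at the ends of the miRNA, with 70 of 94 in the last 3 positions and 17 at position 1 between Hampshire and Pietrain.

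Just outside the chosen positions lay 17 A-to-G changes at position 1, with a median of 0.272%, led by miR-99a A1G at 2.08%, miR-378 A1G at 0.566% and miR-103 A1G at 0.455%. At the length minus 2 there were 10, with a median of 0.300%, led by miR-151-3p A19G at 0.511%, miR-23b A22G at 0.455% and miR-378/378b-3p A16G at 0.371%. The last had only 19 G reads, in 3 libraries, and whether it is a shortened form of miR-378 A16G was not examined. Just inside, at the length minus 3, the 7 members had a median of 0.103%, and let-7g A19G (0.364%), miR-191 A19G (0.356%) and miR-103 A20G (0.262%) were the highest. That median is the share of miR-218-5p A18G, which had only 7 G reads, near the smallest listed count of 6. It therefore cannot be set against the medians just outside.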

How the data were processed

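Per the labels' protocols, small RNA libraries were made with a ligation-based kit and sequenced from 1 end. Named in the submitters' processing notes are Sscrofa10.2, FastQC, bcl2fastq and DESeq2. Not given in the sources used here are the trimmer, the aligner with its mismatch settings, and the miRNA release. Coordinates are left out, since the annotation at hand is of another assembly, and sequences are those of the deposited tables.

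The authors deposited, per breed, raw counts per sequence and miRNA name, without normalization. 80 sequences without a name (0.0480% of reads) were left out. In the authors' deposited comparisons log2 fold changes with their errors, p-values, a test score and a mean signal stand side by side, per the file headers, and these served only to check the labels.

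edgeR 4.0.16 (R 4.3.3) fitted the G counts with the leading counts as offset, in all 22 libraries or in 1 breed, and kept changes with at least 12 expected reads in every library. Benjamini-Hochberg adjustment ran over all single-base changes kept, and the threshold was 0.05. Standard errors were derived from the p-values. Alternatives were limma 3.58.1 on log2 odds, DESeq2 1.42.0, levels after TMM scaling, no filter, 30 expected reads, 0 set to 5, the exchange, and leaving out each library. On simulated data with 241 changes the Hampshire and Large White comparison recovered 98% of 1.5-fold changes, with 4 false calls over 5 runs. The Hampshire fat comparison with 260 changes recovered 60%, with 3 false calls. The most false calls, 11, were in the Pietrain fat comparison. Differences smaller than 1.5-fold, such as those of miR-26a A16G between breeds, were not simulated.

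Named members are the 12 of highest share with at least 1000 A plus G reads, any set apart above 1% (none was), those in the list of miRNAs known for editing, the 5 with most G reads, per comparison up to 5 per direction past the threshold or else the 3 of smallest p, and the 3 highest at each edge of the chosen positions. The members and lists were chosen with earlier results of these data known. Each p measures spread over these libraries alone. Without molecular identifiers PCR copies count as reads, so intervals cover counting error only.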

Additional observations from a re-analysis of the deposited data

Results flagged for a closer look

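In 84 groups of 4 or 5 libraries, for 20 named members and the library median, 3 libraries lay far from the others of their group, where chance gives about 1 in 20 groups. miR-378 A16G had 1.62% in Large White thick fat replicate 1, and 0.781% to 0.837% in the others. That is 1 of the 2 libraries whose labels are in doubt. miR-26a A16G had 0.368% in Large White thin fat replicate 3, against 0.422% to 0.432%. let-7f-5p A10G had 0.274% in Pietrain thick fat replicate 3, against 0.292% to 0.296%.

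The difference of miR-378 A16G between fat classes varied between breeds (edgeR adjusted p = 0.0169), and it rests on Hampshire thin fat replicate 1, as described above.

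At position 1, which the comparisons do not use as members, miR-99a A1G had a pooled share of 2.08%, above all members but miR-365-3p A11G. Its mean share was 2.12% (SD 0.392) over 7 Pietrain libraries, 1.79% (SD 0.354) over 8 of Large White and 2.49% (SD 0.600) over 7 of Hampshire. In miR-100, which begins with the same bases, the mean shares of A1G were 0.521%, 0.372% and 0.398% in the same order.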

How the results depend on the processing

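No paired analysis was possible because the numbers that sample titles share belong to different breeds, so to different animals, and no number recurs within a breed. The number of members, 158, was 139 when reads in at least 2 libraries were required, and the library median of 0.287% moved to at most 0.291%. Over all breeds and in Large White, 0 members were called in every alternative run. In Pietrain 0 to 1 were called on leaving out single libraries, in Hampshire 0 to 1, and 1 with DESeq2. For the difference between breeds in the effect of fat class, the 1 call became 0 with levels in place of ratios, with no filter and with 30 expected reads, where miR-378 A16G was no longer tested, and 0 to 1 on leaving out libraries. Pietrain and Large White differed at 0 to 1 members on leaving out libraries. Hampshire and Large White differed at 2 with DESeq2, 30 expected reads, 0 set to 5 or the exchange, at 1 to 2 on leaving out libraries, and at 21 by levels, which carry the level of the miRNA itself. Hampshire and Pietrain differed at 2 with no filter, at 15 by levels, and at 0 to 2 on leaving out libraries. By levels 4 named members changed sign, miR-26a A16G to 0.039 (Hampshire minus Large White), miR-26a A8G to 0.029 (Pietrain minus Large White), miR-100 A10G to 0.050 (Pietrain fat) and let-7a A10G to 0.052 (Hampshire fat). The cause was not tested beyond this construction. Of 950 alternative values of pooled shares 947 moved by less than 1 SD between libraries. Among the 947, whose SD is wide where libraries are listed at 0, 4 members were lower by over 1.5 times over all lengths. These were miR-320 A14G (0.463% to 0.183%), miR-365-3p A11G (2.76% to 1.75%), miR-27a A14G (0.188% to 0.112%) and miR-27a A13G (0.140% to 0.0651%). The exceptions to the 947 were let-7g A17G, at 0.245% over all lengths, and the 2 members of miR-455-5p, at 0.871% with 0 set to 5.

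Depth limits low shares and members of thinly read miRNAs, for which 6 reads in a library are needed. The 2 Hampshire thin libraries limit every result on fat class in that breed.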
